A study of Mus musculus with 2 samples.

Results

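The integrated stress response and the genes of amino acid supply that it governs were followed in mouse intestinal epithelial cells through 10 genes: Atf4, Ddit3, Trib3, Sesn2, Chac1, Herpud1, Asns, Phgdh, Psat1 and Psph. They were taken by gene name among the non-control probes of the arrays, which gave 14 probes of 55678, and all 10 genes were among the 12437 named genes measured on both arrays. RNA came from wild-type male mice whose intestinal segments had been kept for 2 h with 0.5 µM cholic acid, a primary bile acid, or with vehicle (0.05% DMSO, 0.25% ethanol), after which RNA was extracted from the epithelial cells. The series looks for bile acid-dependent target genes of PPARα, a nuclear receptor of fatty acid metabolism. There was 1 one-colour array per group, which allows neither a replicate check nor a p-value for any difference given here, and the number of arrays limits the precision. The labels used here give neither the strain, the age, the number of mice nor the place along the intestine, and they give the solvent for the vehicle alone.

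In the integrated stress response, kinases that sense uncharged tRNA, unfolded protein in the endoplasmic reticulum (ER), haem shortage or double-stranded RNA phosphorylate the initiation factor eIF2. General translation then slows, while the mRNA of the transcription factor ATF4 is translated more. ATF4 binds composite elements in genes for amino acid synthesis, amino acid import and tRNA charging, and also induces its own brakes. Serine is made from a glycolytic intermediate by PHGDH, PSAT1 and PSPH in that order, and it feeds glycine, glutathione and the folate one-carbon cycle. Much of the control of ATF4 itself is at translation, which an array does not measure.

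The 10 genes did not share a direction. Chac1, a cytosolic enzyme that breaks down glutathione, was 3.17-fold lower on the cholic acid array, and Herpud1, an ER membrane protein of ER-associated degradation, was 2.20-fold lower. The serine synthesis genes Phgdh and Psat1 were 2.30-fold and 2.21-fold higher. The other 6, the transcription factors Atf4 and Ddit3 among them, differed by less than 2-fold, between -0.32 and 0.48 on the log2 scale. All differences are cholic acid minus vehicle after each array was scaled to its 75th percentile, and some of the 10 genes were chosen because they differed on these same arrays, so the counts describe and test nothing. Of all measured genes 6.46% were at least 2-fold higher and 2.08% at least 2-fold lower, and the median of the 10 genes was 0.11, against 0.08 for all of them. With a limit of 1.5-fold the members past it were again 2 higher and 2 lower, beside 17.4% and 7.79% of all genes, and with 3-fold 0 and 1, beside 1.36% and 0.33%.

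The scaling matters for every value here, because the 75th percentile was a signal of 741 on the cholic acid array and 1060 on the vehicle array, so that 0.52 was added to each unscaled log2 difference. Before scaling, 9 of the 14 probes were dimmer and 5 brighter on the cholic acid array. The 5 were both probes of Phgdh, both of Psat1 and the brighter one of Psph. The gap between the differences of 2 genes does not depend on a scaling that shifts all genes alike. The difference of Phgdh lay 2.87 log2 units above that of Chac1 and 2.34 above that of Herpud1. That of Psat1 lay 2.81 and 2.28 above those of the same genes.

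**Figure D1:**
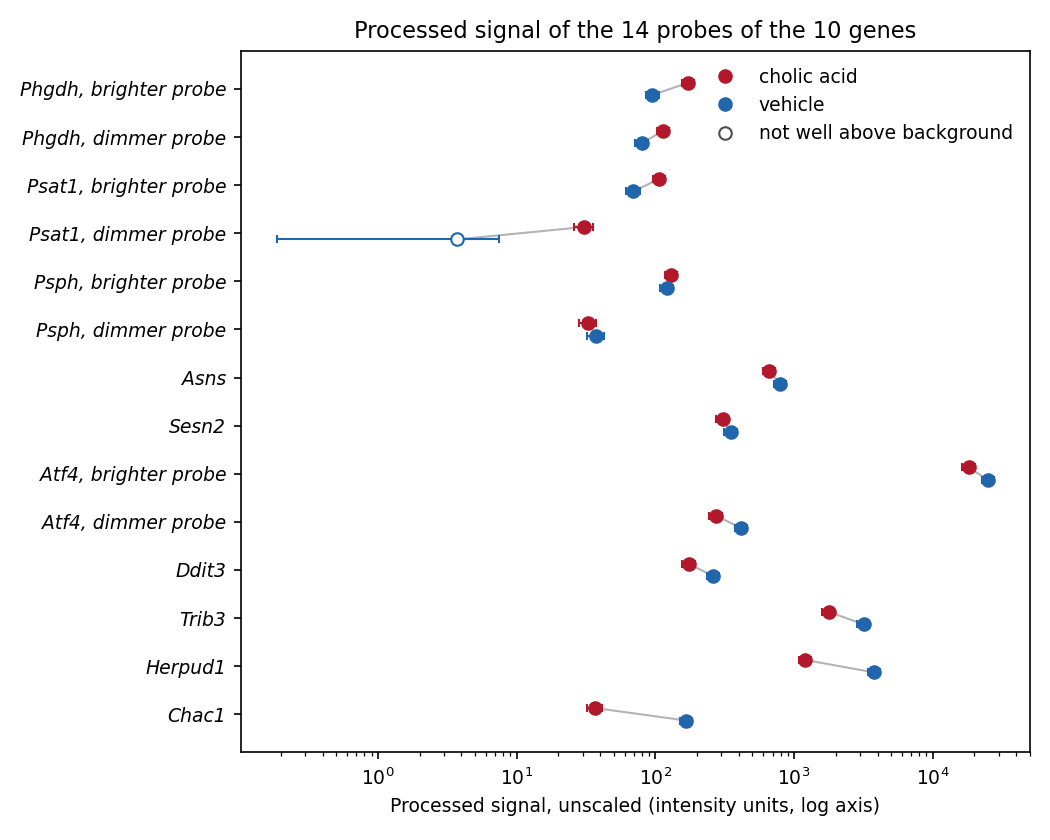
Processed signal of each of the 14 probes on the cholic acid array (red) and the vehicle array (blue), unscaled, on a log axis; bars are the scanner software's own error of the signal, and an open point was not well above background. Chac1 and Herpud1 lie furthest to the left in cholic acid relative to vehicle, and the probes of Phgdh and Psat1 are brighter in cholic acid.

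Atf4, the transcription factor at the centre of the response, was among the brightest probes of the arrays. Its probe at chr15:80087902-80087961 (mm9, plus strand) had a processed signal of 18200 ± 1820 on the cholic acid array and 25100 ± 2510 on the vehicle array, where the error is the scanner software's own and covers a single spot. That signal lay above 99.0% of the non-control probes in cholic acid and 99.1% in vehicle. The other probe, at chr15:80086639-80086698, gave 273 ± 27.4 in cholic acid and 417 ± 41.8 in vehicle. After scaling the probes differed by 0.05 and -0.09, and the gene by -0.02 ± 0.14 (scanner error). The 1000 measured genes nearest to it in signal had a spread of 0.37 (robust SD of their differences), so Atf4 mRNA differed by far less than genes of like signal did.

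Ddit3 encodes CHOP, a transcription factor induced by ATF4 that can promote cell death. Its probe gave 174 ± 17.7 in cholic acid and 262 ± 26.4 in vehicle, a scaled difference of -0.07 ± 0.21 beside a spread of 0.43. This was the one probe of the set whose position, chr10:126732518-126732821 (mm9, plus strand), covered 304 bases for a probe of 60, so that it pairs with spliced RNA and not with a continuous stretch of the genome. It is shown for that reason.
Ddit3 probe: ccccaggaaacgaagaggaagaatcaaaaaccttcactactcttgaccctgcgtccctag

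Trib3 encodes a pseudokinase that is induced by ATF4 and CHOP and holds both in check. Its signal was 1780 ± 178 in cholic acid and 3170 ± 317 in vehicle, at chr2:152163161-152163220 (mm9, minus strand). The cholic acid signal was the dimmer, but the scaled difference was -0.32 ± 0.20, within the spread of 0.37. Sesn2, a stress-induced protein that binds leucine and restrains mTORC1, gave 306 ± 30.7 in cholic acid and 350 ± 35.1 in vehicle at chr4:132048858-132048917 (mm9, minus strand). Its scaled difference was 0.32 ± 0.20, beside a spread of 0.44. Neither gene differed by more than genes of like signal.

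Chac1 and Herpud1 were the members that lay lowest in cholic acid. The Chac1 probe at chr2:119179990-119180049 (mm9, plus strand) gave 36.8 ± 4.69 in cholic acid and 167 ± 17.0 in vehicle, and the scanner rated it well above background each time. The scaled difference was -1.67 ± 0.24 beside a spread of 0.52 at that signal, a ratio of -3.18, and lay in the lowest 0.257% of all measured genes. The Herpud1 probe at chr8:96919117-96919176 (mm9, plus strand) was much brighter, at 1200 ± 120 in cholic acid and 3780 ± 379 in vehicle. Its difference was -1.14 ± 0.20 beside a spread of 0.37, a ratio of -3.11, and lay in the lowest 1.29%. Some of the 10 genes were chosen for differing on these same arrays, so such ratios and ranks describe and test nothing. The same holds for the ratios of Phgdh and Psat1 below. Herpud1 was at least 2-fold lower in the main setting and in each of the 10 alternatives, and Chac1 in 9 of the 10. The alternatives that only filter or pick probes cannot move a gene with 1 probe, so both genes kept the main value there. Quantile normalization and the authors' table nearly coincide, at -1.92 and -1.93 for Chac1 and -1.11 each for Herpud1. These tallies therefore hold fewer separate checks than 10. With normexp background correction, which adds an offset of 50 and so compresses dim signals, Chac1 differed by -0.78. Each gene rests on 1 probe and 1 spot.

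The start regions of both genes hold elements that ATF4 is known to bind, and they are shown with that of Trib3, whose value also lay below 0, and of Psat1, which lay on the opposite side. The windows run from 250 bases before to 50 after the start of the gene, from RefSeq on GRCm38.p6, and a window was found for all 10 genes, with 2 for Psat1. Capitals mark a match, on either strand, to the core TGATGNAA of the C/EBP-ATF response element, to its variants TGACGCAA and TGGTGCAA, or to the ER stress element II; none of these matches overlap. The longer ER stress element was searched too, and was found in no window of the 10 genes. The motifs were chosen with the sequences in view.
Chac1, chr2:119350992-119351291, plus strand: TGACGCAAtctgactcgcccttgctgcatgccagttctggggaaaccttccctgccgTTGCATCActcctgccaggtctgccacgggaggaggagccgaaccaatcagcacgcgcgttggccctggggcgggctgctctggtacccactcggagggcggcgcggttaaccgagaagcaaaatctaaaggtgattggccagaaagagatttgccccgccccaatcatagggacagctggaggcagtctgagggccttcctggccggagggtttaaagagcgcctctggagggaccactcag
Herpud1, chr8:94386179-94386478, plus strand: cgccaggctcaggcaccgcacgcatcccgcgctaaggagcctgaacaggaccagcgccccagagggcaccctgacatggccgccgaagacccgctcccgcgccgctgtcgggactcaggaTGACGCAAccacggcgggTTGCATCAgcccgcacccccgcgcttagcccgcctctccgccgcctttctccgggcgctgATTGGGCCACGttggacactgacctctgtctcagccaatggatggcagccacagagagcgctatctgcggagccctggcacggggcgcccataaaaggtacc
Trib3, chr2:152344011-152344310, minus strand: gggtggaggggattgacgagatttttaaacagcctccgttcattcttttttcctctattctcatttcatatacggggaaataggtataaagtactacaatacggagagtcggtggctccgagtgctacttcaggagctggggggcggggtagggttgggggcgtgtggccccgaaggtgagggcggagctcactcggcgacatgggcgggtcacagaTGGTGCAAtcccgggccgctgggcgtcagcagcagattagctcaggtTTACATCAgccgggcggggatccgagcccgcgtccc
Psat1, chr19:15925010-15925309, minus strand: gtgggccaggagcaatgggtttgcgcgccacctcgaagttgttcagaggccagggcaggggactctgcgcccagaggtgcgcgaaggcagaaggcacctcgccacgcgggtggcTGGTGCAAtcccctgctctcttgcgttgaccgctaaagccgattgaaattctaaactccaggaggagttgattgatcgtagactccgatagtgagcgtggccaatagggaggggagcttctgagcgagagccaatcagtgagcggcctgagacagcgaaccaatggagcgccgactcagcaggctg

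The core was found in the windows of 4 of the 10 genes, Chac1, Herpud1, Trib3 and Asns, against 3.97% of 32851 RefSeq windows of the same length. Chac1 and Herpud1, and no other member, also held TGACGCAA, which 0.49% of all windows hold. In Herpud1 it begins 130 bases before the start and the core 112 bases before it, while in Chac1 they begin 250 and 193 bases before it. Trib3 and Psat1 held TGGTGCAA, found in 0.536% of all windows, and the Herpud1 window alone among the members held the ER stress element II, found in 0.0365%. The windows of Phgdh, Psph, Ddit3, Atf4 and Sesn2 held none of the 5 motifs. Asns, with the core 23 bases before its start, differed by far less than Chac1, so members with the same core lay on different sides of 0. A match is a run of letters and says nothing of binding in these cells.

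Asns makes asparagine from aspartate and is a textbook target of ATF4. Its probe at chr6:7625171-7625228 (mm9, minus strand) gave 662 ± 66.3 in cholic acid and 796 ± 79.6 in vehicle. The scaled difference was 0.25 ± 0.20, within the spread of 0.37.

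The 3 enzymes of serine synthesis all lay above 0, with the first and second steps past 2-fold. Phgdh, the dehydrogenase that commits the glycolytic intermediate to serine, had 2 probes that went the same way. The probe at chr3:98117215-98117274 (mm9, minus strand) gave 172 ± 17.5 in cholic acid and 95.3 ± 10.2 in vehicle. The probe at chr3:98117303-98117361 gave 114 ± 11.9 in cholic acid and 79.8 ± 8.73 in vehicle. The probes differed by 1.37 and 1.03, and the gene by 1.20 ± 0.15, or 2.47 times the spread of 0.48 among genes of like signal. Phgdh has a transcribed pseudogene, Gm8096, whose accession the second probe also carries, so that probe may take up some of its RNA. The probe of Gm8096 was dim, at 34.6 in cholic acid and 27.1 in vehicle, with a scaled difference of 0.87.

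Psat1, the aminotransferase of the second step, was seen by a probe at chr19:15979622-15979681 (mm9, minus strand), with a scaled log2 signal of -2.79 in cholic acid and -3.93 in vehicle. In the authors' deposited table its signal was 121 in cholic acid and 64.6 in vehicle. The difference of the scaled values was 1.14 ± 0.22, or 2.18 times the spread of 0.52. The other probe lies 11964 bases away, at chr19:15991586-15991645, and gave 30.7 ± 4.62 with cholic acid, well above background. On the vehicle array it was not well above background, with a surrogate signal of 3.72 ± 3.74. Set against 14.6, the lowest signal that was so there, its level with cholic acid was at least 3.01-fold higher after the main scaling. That bound includes the 0.52 log2 units which the scaling adds, and it was not computed with other scalings. Both probes therefore lay on the same side, and the sequence of the dim one is given because only 1 array saw it.
Psat1 dim probe: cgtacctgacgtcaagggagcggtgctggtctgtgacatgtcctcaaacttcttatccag

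Psph, the phosphatase that releases free serine, did not reach 2-fold. Its brighter probe, at chr5:130271441-130271500 (mm9, minus strand), gave 130 ± 13.5 in cholic acid and 121 ± 12.6 in vehicle. Its dimmer one, at chr5:130272308-130272367, gave 32.9 ± 4.76 in cholic acid and 37.4 ± 5.27 in vehicle. The scaled differences were 0.62 and 0.33, and the gene lay at 0.48 ± 0.18, within the spread of 0.54. The serine synthesis probes were dim, between the 64.2 and 80.5 percentile of all non-control probes in cholic acid.

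The Phgdh and Psat1 differences stayed above 0 in each of the 10 alternatives, but their place past 2-fold did not. Phgdh was at least 2-fold higher in 6 of the 10, with a range of 0.91 to 1.37, and Psat1 in 5 of the 10, with a range of 0.81 to 2.35. Psat1, with 1 probe past the main filter, kept its main value with the positive and significant flag and with the brightest probe alone. Phgdh kept its own with that flag and without a filter on dim probes. In the authors' deposited table the probes of Phgdh differed by 1.19 and 0.81, the brighter probe of Psat1 by 0.90, the dimmer probe of Psph by -0.04, and Chac1 and Herpud1 by -1.93 and -1.11. With percentile scaling over all non-control probes, Phgdh was at 0.97 and Psat1 at 0.91. Atf4 and Ddit3 changed sign with the setting, Atf4 in 2 of the 10 and Ddit3 in 1.

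**Figure D2:**
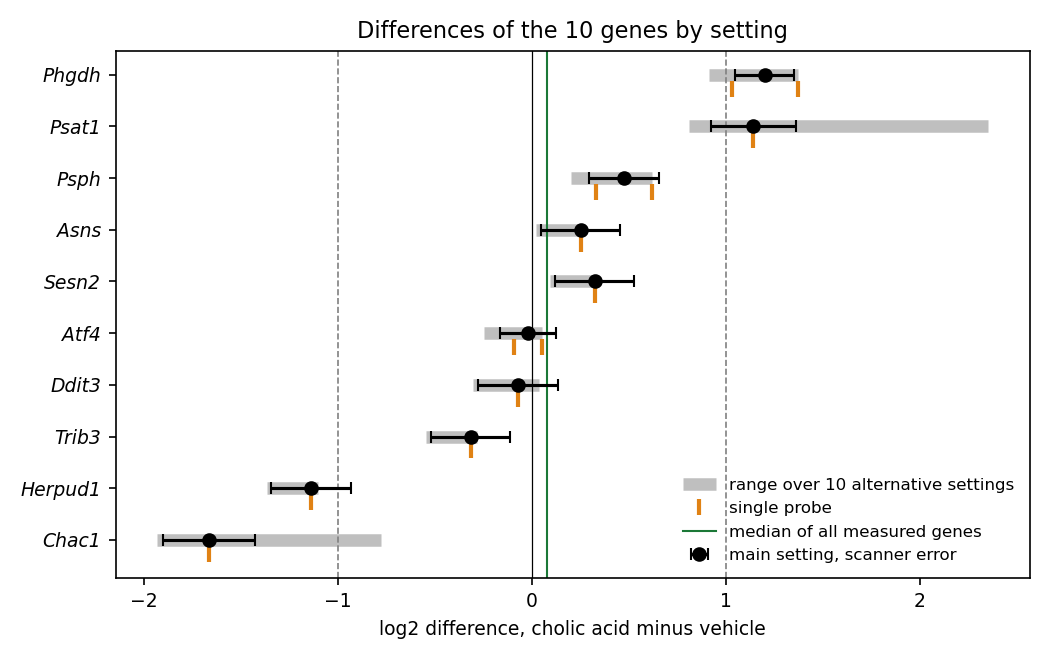
The log2 difference, cholic acid minus vehicle, of the 10 genes: black points are the main setting with the scanner's error, orange ticks single probes that cleared background well each time, and grey bars the range over 10 alternative settings. Dashed lines mark 2-fold and the green line the median of all measured genes, 0.08; Herpud1 stays below -1 throughout, while the bars of Phgdh, Psat1 and Chac1 cross the 2-fold line.

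**Figure D3:**
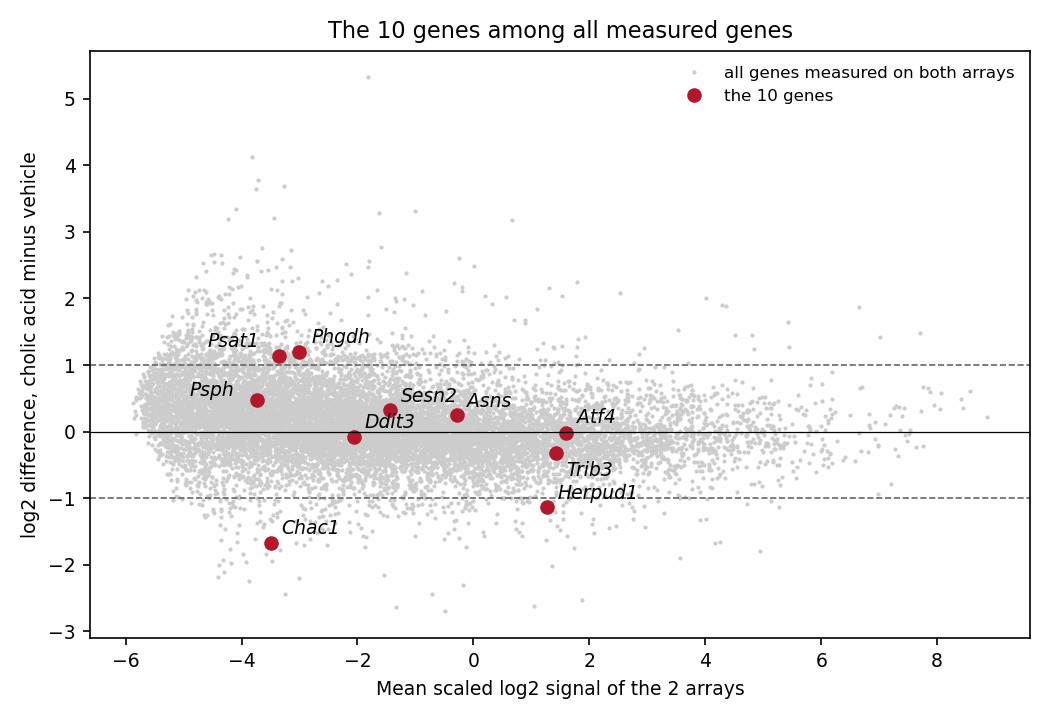
Each of 12437 genes measured on both arrays (grey) by its mean scaled log2 signal and its log2 difference, cholic acid minus vehicle, with the 10 genes in red and dashed lines at 2-fold. Phgdh, Psat1 and Chac1 lie at low signals, where the grey cloud is wider than at high signals and shifted upwards. Herpud1 lies at a higher signal, below most genes beside it.

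Among the genes that set off or end the response, the ER stress kinase PERK was the one kinase past 2-fold. Its gene Eif2ak3 gave 245 in cholic acid and 742 in vehicle, a difference of -1.08 beside a spread of 0.39. The genes of the other eIF2 kinases lay at -0.44 (Eif2ak2, PKR), -0.34 (Eif2ak1, HRI) and 0.31 (Eif2ak4, GCN2). Of the subunits that lead phosphatase to eIF2, the inducible Ppp1r15a (GADD34) lay at 0.57 and the constitutive Ppp1r15b at -0.60. Impact, an inhibitor of GCN2 activation, averaged 1.40, but its probes lay at 0.41 and 2.38 and disagree. In this list of 16 genes 15 were measured, 1 at least 2-fold higher and 1 lower, with a median of 0.26. Of all measured genes the shares were 6.46% and 2.08%.

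Other targets of the response had a median of -0.29 over 23 measured of 30, below the 0.08 of all genes, with 15 below 0. Eif4ebp1, the translation repressor 4E-BP1, was 2.22-fold lower, at 450 in cholic acid and 1430 in vehicle. No gene of the list was at least 2-fold higher on the mean of its probes. Sqstm1 averaged 0.68, but its probes lay at -0.52 and 1.88 and disagree. Chac2, the second glutathione-degrading enzyme of the Chac family, lay at -0.86, Cebpg, a partner of ATF4 in DNA binding, at -0.85 and Sesn1 at -0.85. Atf3 was at -0.09, Cebpb at -0.11 and Ddit4 at 0.45. For Fgf21, Stbd1, Pck2, Pycr1 and Trib2 neither array was well above background. Gdf15 and Gpt2 were so with vehicle alone.

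Genes of amino acid supply were mixed. Of 12 amino acid carriers 9 were measured, with a median of 0.21. Slc7a5, the large neutral amino acid carrier LAT1, was 2.34-fold higher from dim signals of 34.0 in cholic acid and 20.8 in vehicle, while the glutamine carrier Slc38a2 lay at -0.95, at 161 in cholic acid and 446 in vehicle. Slc7a11, the cystine carrier, was well above background on neither array. The cytosolic tRNA synthetases varied little: 19 of 20 were measured, none was 2-fold apart, and they ran from -0.38 to 0.52 with a median of 0.12. Mars1, the methionyl enzyme whose probe lies near that of Ddit3 on the opposite strand, was at -0.29.

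Downstream of serine, Mthfd1l, a mitochondrial formate-producing enzyme of the folate cycle, was 2.54-fold higher, at 148 in cholic acid and 83.3 in vehicle, a difference of 1.35 beside a spread of 0.49. It was the only gene of 18 measured one-carbon and serine-using genes past 2-fold, beside 6.46% higher and 2.08% lower of all genes. Mthfd2 lay at 0.57 and Shmt2, the mitochondrial enzyme that splits serine, at -0.05. Sptlc2 and Sptlc1, which use serine to start sphingolipids, lay at -0.61 and -0.42. The list had 9 genes above 0 and 9 below, with a median of 0.02.

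The ER genes beside Herpud1 lay on both sides of 0. Of 36 chaperones, folding enzymes and degradation factors, all measured, 0 were at least 2-fold higher and 1 lower, with a median of 0.12. The 1 was Atf6, an ER stress sensor, at -1.03 from dim signals of 14.3 in cholic acid and 41.8 in vehicle. Of all measured genes, 6.46% were at least 2-fold higher and 2.08% lower, so these counts do not set the list apart. Tmbim6, an ER membrane protein that protects against cell death, lay at -0.95 from bright signals of 6140 in cholic acid and 17000 in vehicle. The degradation factors Edem1 and Derl1 lay at -0.64 and -0.59 and Dnajb9 at -0.46. Syvn1 averaged 0.25, but its probes lay at -0.60 and 1.09 and disagree. Hspa5, the chaperone BiP, lay at 0.51, Hsp90b1 at 0.31 and Xbp1 at 0.14, while Derl3 and Atf6b lay at 0.99 and 0.89. Herpud2, the paralogue of Herpud1, was at -0.25. In the gamma-glutamyl cycle, where Chac1 acts, none of 10 genes was 2-fold apart: glutathione synthetase Gss lay at -0.91, Gclm at -0.59 and Gclc, the catalytic subunit of the rate-limiting ligase, at 0.86.

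**Figure D4:**
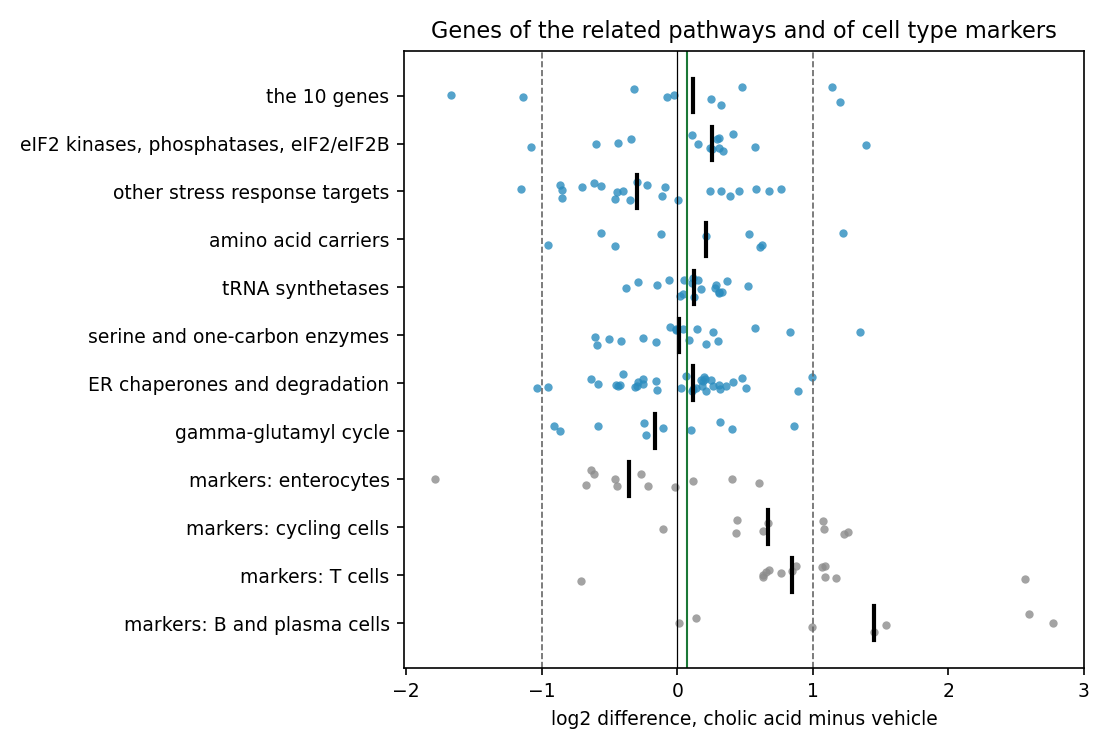
Log2 differences, cholic acid minus vehicle, of the measured genes of each list (points, spread vertically at random for legibility) with the list median (black bar), dashed lines at 2-fold and the median of all measured genes in green. The pathway lists (blue) have medians between -0.29 and 0.26, and the markers of cycling cells, T cells and B cells (grey) lie further to the right.

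The RNA carried the markers of its labelled cell type and of other cells. All 12 enterocyte markers were measured, among them Vil1 at 74100 in cholic acid and 107000 in vehicle, with a median difference of -0.35. In units of the 75th percentile, their summed level was 1392 in cholic acid and 1348 in vehicle. Markers of cycling crypt cells, 9 of 9 measured, had a median of 0.67 with 4 at least 2-fold higher, and a sum of 4.91 in cholic acid and 3.30 in vehicle. T cell markers, 13 of 13, had a median of 0.84 and a sum of 168.9 in cholic acid and 110.0 in vehicle, and only Cd4 lay below 0. B and plasma cell markers, 7 of 10 measured, had a median of 1.45 and a sum of 12.9 in cholic acid and 11.0 in vehicle. The brightest probes weigh most in these sums. For B cells these were Xbp1, also in the ER list, at 0.14 and Jchain at 0.02, and for T cells Gzma at 0.67. The other measured B cell markers lay between 0.99 and 2.77. Tnfrsf17 was well above background on neither array, and Ms4a1 was so in cholic acid alone, at least 16.1-fold higher. Median differences of the other marker lists were 0.95 for tuft cells, 0.69 for smooth muscle, 0.57 for fibroblasts, 0.39 for enteroendocrine cells, 0.05 for goblet cells, -0.21 for pancreatic acinar cells and -0.25 for Paneth cells. The acinar median rests on 3 of 8 genes and the Paneth median on 4 of 7. The latter leaves out Pla2g2a, which was well above background in vehicle alone. Its signal was 12.5 in cholic acid and 346 in vehicle, at least 18.6-fold lower after scaling. The measured Paneth markers ran only from -0.57 to 0.26. The labels give no strain, and whether the Pla2g2a difference stems from genotype, cells or treatment was not tested. By their medians, the cycling, T and B cell lists lay on the same side as Phgdh and Psat1. So did the tuft, smooth muscle, fibroblast and enteroendocrine lists and, at 0.05, the goblet list. That side is therefore not particular to cycling, T and B cells. Genes at low signals were shifted upwards in the plot of all genes by signal. The part of that shift in the marker medians was not tested, and these medians were taken in the main setting alone. The enterocyte median, with 9 markers below 0 and 3 above, lay on the side of Chac1 and Herpud1. The Paneth and acinar medians lay on that side too. The summed enterocyte level was the higher in cholic acid, but the brightest probes weigh most in it. The brightest, Fabp2, lay at 0.61 and Anpep at 0.40, while Apoa4 was lowest at -1.79. Such a sum over unlike probes is no measure of cell content. The part of these cell types in the differences of the 10 genes was not tested. In bulk RNA, fewer cells of a type and less RNA per cell cannot be told apart.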

How the data were processed

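RNA was measured on 2 one-colour Agilent arrays (design 028005), 1 per group. Per the file headers, spots were read with Agilent Feature Extraction 10.7.1.1 (9.5.1.1 in the submitters' processing notes) and probe positions are on mm9. The deposited intensity is the processed signal, corrected by the software for background and spatial trend on each array, with surrogate values where a spot was too dim. The scanner's error and other columns of flags per spot, such as well above background, are from the same deposited files. The authors also deposited a processed signal table on a linear scale with the same median, 10.1, on both arrays. Once sorted, its columns differed by at most 0.0243%, so the arrays were brought to 1 distribution. Its log2 values correlated with the scanner's at r = 0.9998 for cholic acid and 0.9999 for vehicle across probes.

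Spots with an outlier flag were left out, 119 in cholic acid and 124 in vehicle, and 0 spots were saturated. Of 55678 non-control probes 22612 (40.6%) cleared background well each time, and the 75th percentile over these was subtracted on the log2 scale. Probes were named by accession, symbol or synonym in RefSeq (GRCm38.p6, for names), 31374 in all. A gene's value is the mean over those of its probes that did so. With 1 array per group no test was run, and genes were counted at 2-fold. Scripts were tested on simulated data. Normexp used limma 3.58.1, and lowess statsmodels 0.14.6 with a span of 0.3.

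All 10 genes and every probe of them are named, and of each other pathway list the genes past 2-fold. The gamma-glutamyl cycle had none, and the 4 with the largest size of difference are named. Of the tRNA synthetases, which also had none, only Mars1 is named, for its place near Ddit3. The cell type marker lists are given by medians, sums and counts, and not all of their genes past 2-fold are named. Further list members are given as examples chosen after their values were seen. The genes and lists were chosen with earlier results of these data known. The alternatives were other scalings, background corrections, probe filters and fold limits, a correction for probe GC content and the authors' table.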

Additional observations from a re-analysis of the deposited data

Results flagged for a closer look

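A probe that enters no comparison above carried signal at the Phgdh locus. It belongs to a cDNA clone without a gene name, and its deposited position, which covers only part of the probe, lies 132 bases from the nearer Phgdh probe on the same strand. Its signal was 256 in cholic acid and 154 in vehicle, both well above background; among the 308 negative control spots of an array, 1 was so. Its scaled log2 difference was 1.25, beside 1.37 and 1.03 for the probes of Phgdh. Of 6365 unnamed probes that cleared background well each time, 570 (8.96%) lay past 2-fold on the higher side and 94 on the lower.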

How the results depend on the processing

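In the main setting 2 of the 10 genes lay past 2-fold on the higher side and 2 on the lower. The number higher was 0 with the percentile over all non-control probes, with quantile normalization, in the authors' table and with normexp, and 1 with loess. The number lower was 1 with normexp. With a 3-fold limit, 0 were higher and 1 lower. Both numbers were 2 with median centring, a GC correction, no filter on dim probes, the positive and significant flag, the brightest probe and a 1.5-fold limit. Chac1, Herpud1, Phgdh, Psat1, Psph, Asns, Trib3 and Sesn2 kept their sign in all 10 alternatives, and Atf4 and Ddit3 did not. A gene with 1 probe in all cannot change with no filter, the flag or the brightest probe, so those settings did not test its sign. The Psat1 value of 2.35 without a filter includes a surrogate signal. The bound of the dim Psat1 probe was 1.59 on the log2 scale, and 3.56 with the positive and significant flag. The latter is set against the surrogate vehicle signal of 3.72 ± 3.74, so it is not a bound over a detected level. Over all genes, 803 were past 2-fold higher and 259 lower (75.6% higher), against 404 and 531 (43.2%) with the percentile over all probes, 526 and 387 (57.6%) with median centring, 426 and 410 (51.0%) with quantile normalization, 478 and 367 (56.6%) with loess, 430 and 414 (50.9%) in the authors' table, 542 and 373 (59.2%) with the GC correction, 258 and 103 with normexp, 1797 and 436 with the positive and significant flag, and 2693 and 586 without a filter. The median of all genes shifted by -0.23, -0.13, -0.14, -0.12, -0.15 and -0.13 with the first 6 of these, by 0.10 with normexp and by 0.30 without a filter. No paired analysis was possible because each group has 1 array, and for the same reason no array could be left out. Among 226 probes spotted 10 times, the median SD of the log2 difference between spots was 0.095, and it was 0.21 for the 94 with a vehicle signal under 200, a range that holds Chac1 and the serine synthesis genes.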
